A study of Mus musculus with 6 samples.

Results

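The granzymes and killer lectin-like receptors are the killing proteins of cytotoxic lymphocytes and a large part of the receptors that control them. They were taken from the gene table by symbol: every granzyme gene (Gzm), every killer cell lectin-like receptor gene of the families Klra to Klrk, and the genes Prf1, Nkg7 and Ncr1. This gave 39 of 31426 genes, 8 effector genes and 31 receptor genes, of which 36 reached 10 counts in at least 1 library and are called measured. The 3 below 10 counts in every library, Gzmd and the pseudogenes Klra11-ps and Klrb1-ps1, were not measured, and other granzyme genes of the mouse were not analysed here. Poly(A) RNA was sequenced from hepatic CD11c+ cells of C57BL/6 mice, labelled as 4-8 weeks of age, that were fed a high-fat diet (HFD) for 14 weeks. Each of 6 libraries was made from 10 ng of RNA, and 3 were labelled WT (21, 22 and 23) and 3 Atg5 CD11cKO (25, 26 and 27). Atg5 CD11cKO mice carry floxed Atg5 alleles and a Cre transgene under the promoter of Itgax, the gene of CD11c, and the study describes its WT controls as floxed littermates. Cre under this promoter acts in every cell that has used it, and NK cells can express CD11c too. The methods name magnetic CD11c beads for the isolation, with a sort described elsewhere in the study, so lymphocytes can be in the fraction. Nothing in the labels says that each library came from a separate mouse, and the p-values below therefore measure the spread between libraries.

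Granzymes are serine proteases stored in the granules of NK cells and cytotoxic T cells, and perforin makes the pores through which they enter a target cell. Whether granules are released depends on paired receptors. Activating ones signal through adaptor proteins such as DAP10 and DAP12, and inhibitory ones, many of which bind MHC class I, signal through phosphatases. In the mouse liver these genes mark conventional NK cells and the resident type 1 innate lymphoid cells (ILC1), and single members are also known from myeloid cells, Ly49B (Klra2) among them, and from plasmacytoid DCs, Ly49Q (Klra17) among them. In bulk RNA, fewer cells of a type and less RNA per cell cannot be told apart.

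One library stood apart from its label. The deleted gene, Atg5, had 53.9, 49.7 and 22.0 CPM (counts in each 1000000, scaled by TMM factors) in WT 21, 22 and 23 and 21.3, 21.0 and 20.7 CPM in Atg5 CD11cKO. Across the 17499 genes kept for the test of all 6 libraries, the library labelled WT 23 correlated with the Atg5 CD11cKO libraries at r = 0.980 to 0.982 on the log scale. With the other WT libraries it correlated at 0.947 and 0.949. These values are over genes of the same libraries and given as a description. It was nearer to the Atg5 CD11cKO mean than to the mean of WT 21 and WT 22 for 28 of the 36 measured members. The counts of members and list genes called are therefore given over the 6 libraries as labelled and without it. For some single genes the test is given only without it, and as labelled edgeR called 0 of all genes. The library labelled WT 23 was left out because of its values. The p-values without it therefore describe how WT 21 and WT 22 differed from the 3 Atg5 CD11cKO libraries. They are not those of a planned comparison. Total estimated counts lay between 31064570 and 34034675, and the members held between 30640 and 70887 of them.

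The stretches of DNA just before the start of transcription are printed for 6 members on which the results turn. They come from RefSeq (build GRCm38.p6), read 5′ to 3′ on the gene's strand, each 120 bases long and ending at the base before the start. In the 3 cytotoxic genes, capitals mark matches on either strand to the core of the RUNX motif, TGTGGT, and in Gzmb also the 1 match to the AP-1 motif, TGANTCA. In the 3 Ly49 genes, which hold none of the motifs searched, capitals mark runs of at least 10 bases that all 3 share. The other Ly49 promoters were not searched for these runs, which may occur there too.
Gzma: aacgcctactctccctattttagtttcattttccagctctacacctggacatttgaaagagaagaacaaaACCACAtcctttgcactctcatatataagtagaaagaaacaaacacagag
Gzmb: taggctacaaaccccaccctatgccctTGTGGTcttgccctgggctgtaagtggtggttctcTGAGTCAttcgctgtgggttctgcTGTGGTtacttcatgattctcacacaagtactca
Ncr1: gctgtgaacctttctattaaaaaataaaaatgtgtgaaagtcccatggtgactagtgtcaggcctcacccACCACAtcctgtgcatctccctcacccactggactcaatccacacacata
Klra5: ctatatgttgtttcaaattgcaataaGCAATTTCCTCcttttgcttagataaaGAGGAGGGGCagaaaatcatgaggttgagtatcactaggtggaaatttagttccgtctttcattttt
Klra2: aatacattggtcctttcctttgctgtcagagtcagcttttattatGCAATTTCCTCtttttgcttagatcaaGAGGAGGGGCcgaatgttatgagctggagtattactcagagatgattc
Klra17: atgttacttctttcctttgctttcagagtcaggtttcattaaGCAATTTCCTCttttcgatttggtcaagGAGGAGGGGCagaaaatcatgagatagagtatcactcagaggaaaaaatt
Gzma lies at chr13:113100982-113101101 (minus strand), Gzmb at chr14:56262335-56262454 (minus) and Ncr1 at chr7:4337604-4337723 (plus). The windows of Klra5, at chr6:129913225-129913344, of Klra2, at chr6:131247363-131247482, and of Klra17, at chr6:129876673-129876792, are all on the minus strand. The match in Gzma and the one in Ncr1 both began 50 bases before the start, and those in Gzmb began 93 and 34 bases before it. For Klra5 the start used by RefSeq lies 4426 bases from the outermost start of the GENCODE annotation.

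RUNX proteins and the T-box factors T-bet and Eomes are transcription factors of NK cells, which is why their motifs were searched in the 250 bases before each start, together with those of AP-1 and ETS factors. Of the 36 measured members 31 had a RefSeq promoter. TGTGGT was found on either strand in 15 of these 31 (48.4%), against 14.0% of all 32851 promoters in the table. The T-box motif GGTGTGA was found in 2 (6.45%, against 3.33% of all), TGANTCA in 1 (3.23%, against 6.75%) and the ETS motif AGGAAG in 10 (32.3%, against 29.5%). The T-box matches were in Nkg7 and Gzmk. For Gzmk the start used by RefSeq lies 44943 bases from the outermost start of the GENCODE annotation. Matches to different motifs can share letters, since TGTGGT ends in the GGT with which GGTGTGA begins, and GGTGTGA in the TGA with which TGANTCA begins. The promoters with TGTGGT were those of Gzma, Gzmb, Gzmc, Gzmm, Prf1, Nkg7, Ncr1, Klrk1, Klrb1a, Klrb1c, Klrc1, Klrc2, Klrc3, Klre1 and Klra1, so all but 1 of the Ly49 genes were without it. Many of the Ly49 promoters are alike. Identity was taken for pairs with at least 200 aligned bases, which left out Klra1 and Klra10 and paired Klra3 with Klra9 only. Over the aligned bases Klra17 was 79.0% identical to Klra2 and 78.1% to Klra5, and Klra3 was 97.0% identical to Klra9. Klra5 and Klra17 were closer to Ly49 genes not printed here, at 92.3% to Klra6 and 87.8% to Klra7. Klra2 had no closer pair than Klra17. The genes in such pairs do not count as separate cases. Promoters of the other families, such as those of Klrc1, Klrc2 and Klrc3, were not compared in this way, and these genes may not be separate cases either. A match is a run of letters and not a measured binding site.

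The first comparison asked how WT and Atg5 CD11cKO libraries differed as labelled. No member passed an adjusted p of 0.05 in edgeR's quasi-likelihood test, where the share called was 0.0% of all 17499 genes tested in either direction. At an unadjusted p under 0.05, 10 of the 35 members tested were lower and 2 were higher in Atg5 CD11cKO, where 9.17% of all genes were lower and 5.21% higher, and DESeq2 called 1 member, Klrb1c. In these 6 libraries Klra7, Klrb1a, Klrb1f and Klri2 were lower in every Atg5 CD11cKO library than in every WT library (8.72% of all genes) and Klra3 and Klrg1 were higher (9.59% of all genes). The median log2 fold change of the members was -0.42, beside -0.01 over all genes.

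Without the library labelled WT 23, 14 of the 35 members tested (40.0%) were lower in Atg5 CD11cKO at an adjusted p under 0.05, where 15.1% of all 18241 genes were, and 4 (11.4%) were higher, where 15.9% of all genes were. The lower ones were 5 of the 7 effector genes and 9 of the 28 receptor genes tested, and the higher ones were all Ly49 genes. Of the lower genes 6 had fallen at least 2-fold, where 5.85% of all genes had. In 20 members every Atg5 CD11cKO library lay below WT 21 and WT 22, and in 6 every one lay above, where 28.0% and 27.0% of all genes did. The median log2 fold change was -0.66 for the effectors and -0.32 for the receptors, beside -0.01 for all genes. Of the lower members with a RefSeq promoter 10 of 13 held TGTGGT, of those not called 5 of 14 and of the higher ones 0 of 4. This is a description without a test, in which genes of the same family are counted singly.

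**Figure D1:**
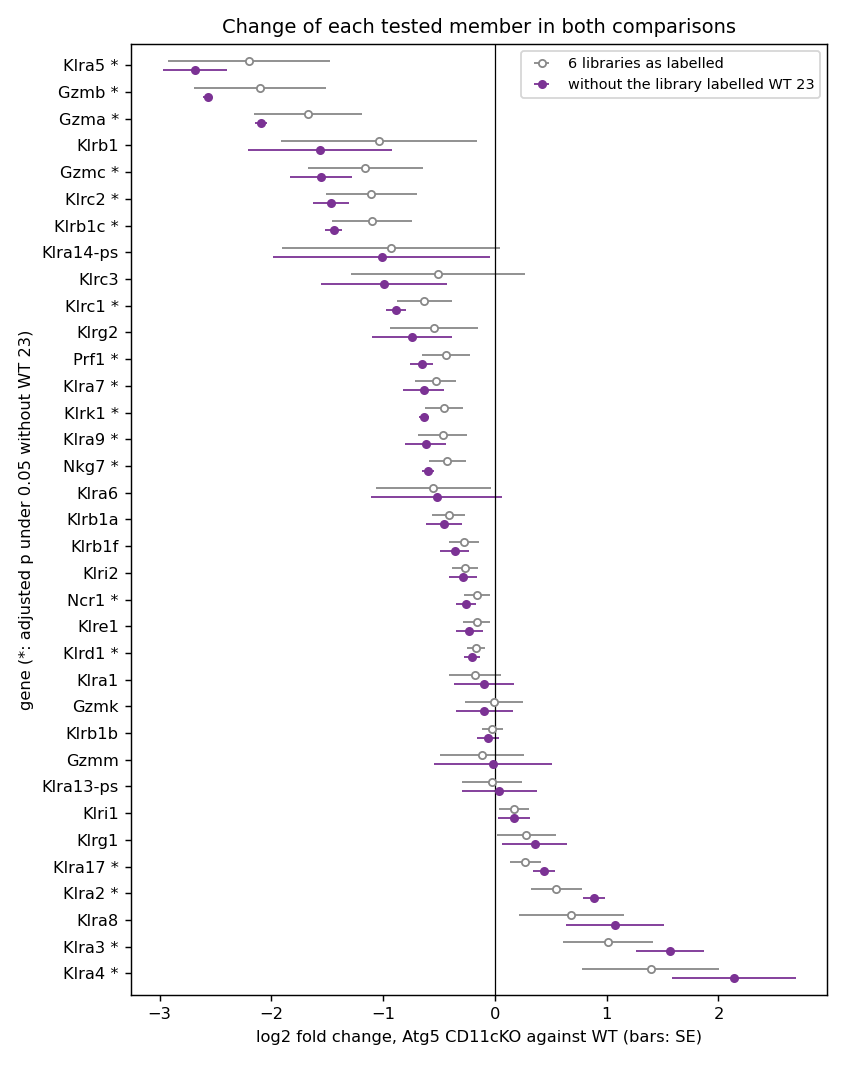
The log2 fold change of Atg5 CD11cKO against WT (x axis, bars are SE) is drawn for each of the 35 members tested, with open grey points for the 6 libraries as labelled and filled purple points without the library labelled WT 23. Klra5 lies lowest at -2.69 and Klra4 highest at 2.14 without that library, and stars mark the 18 members with an adjusted p under 0.05 there.

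Among the granzymes, the main proteases of the granule were far lower in the 4 libraries with the lower Atg5 level, while Gzmk and Gzmm were at like levels in all. Granzyme B, which cleaves caspases and their substrates after aspartate, was at 679 CPM in WT 21, 672 CPM in WT 22 and 109 CPM in the library labelled WT 23, and at 109, 115 and 116 CPM in Atg5 CD11cKO. Granzyme A, a tryptase, was at 308, 303 and 71.4 CPM in WT and at 68.1, 70.6 and 75.2 CPM in Atg5 CD11cKO. WT 21 and WT 22 stood alone in both genes, and the library labelled WT 23 fell within or next to the range of the Atg5 CD11cKO libraries.

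Over the 6 libraries, Gzmb averaged 487 ± 327 CPM in WT and 113 ± 3.54 CPM in Atg5 CD11cKO (SD, n = 3 each), a log2 fold change of -2.10 ± 0.59 (SE) with an edgeR adjusted p of 0.338. Without the library labelled WT 23 it was -2.57 ± 0.04 (edgeR adjusted p = 6.5e-13), 5.94-fold lower. Gzma changed by -1.67 ± 0.48 (edgeR adjusted p = 0.338) as labelled and by -2.09 ± 0.05 (edgeR adjusted p = 8.0e-11) without it. The ratio of Gzmb to Gzma itself was 2.21 and 2.22 in WT 21 and WT 22 and between 1.52 and 1.63 in the other 4 libraries. Gzmb was thus further apart between these libraries than Gzma.

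Gzmc, a chymase-like granzyme that is scarce in resting mouse lymphocytes, was at 6.86, 10.1 and 2.23 CPM in WT and at 2.15, 3.60 and 2.86 CPM in Atg5 CD11cKO. Its groups overlapped only through the library labelled WT 23, without which the log2 fold change was -1.56 ± 0.28 (edgeR adjusted p = 0.0012). Of its 50-base windows 3.79% also occur in Gzme, so a few reads could be shared. Gzmk, a tryptase mostly of memory T cells, was at 7.05, 5.59 and 5.12 CPM in WT and at 7.30, 6.04 and 4.30 CPM in Atg5 CD11cKO. Its groups overlapped in full, and its log2 fold change was -0.01 ± 0.26 over the 6 libraries and -0.10 ± 0.26 without the library labelled WT 23. Gzmm, which cleaves after methionine, lay between 0.597 and 0.890 CPM in all 6 libraries, with overlapping groups.

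Perforin and the granule membrane protein NKG7, which is needed for granules to be released, moved less than Gzma and Gzmb. Prf1 was at 38.0, 35.1 and 20.9 CPM in WT and at 22.0, 24.4 and 23.0 CPM in Atg5 CD11cKO. Nkg7 was at 178, 163 and 111 CPM in WT and at 114, 111 and 112 CPM in Atg5 CD11cKO. In both genes WT 21 and WT 22 lay above the 4 other libraries. The log2 fold change of Prf1 was -0.44 ± 0.21 as labelled and -0.66 ± 0.10 (edgeR adjusted p = 5.7e-04) without the library labelled WT 23, and that of Nkg7 was -0.43 ± 0.17 and -0.60 ± 0.05 (edgeR adjusted p = 7.2e-06). Against Prf1, Gzmb stood at a ratio of 17.9 and 19.1 in WT 21 and WT 22 and of 4.71 to 5.21 in the others.

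Per kilobase of exon, the level changed order between the libraries. In WT 21 and WT 22 Gzmb averaged 470 CPM per kb, Gzma 304 and Nkg7 187, and in Atg5 CD11cKO Nkg7 led with 123 CPM per kb, before Gzmb at 78.9 and Gzma at 70.9. The receptor chain Klrd1 followed with 60.1 CPM per kb in Atg5 CD11cKO, where it had 69.5 CPM per kb in WT 21 and WT 22.

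**Figure D2:**
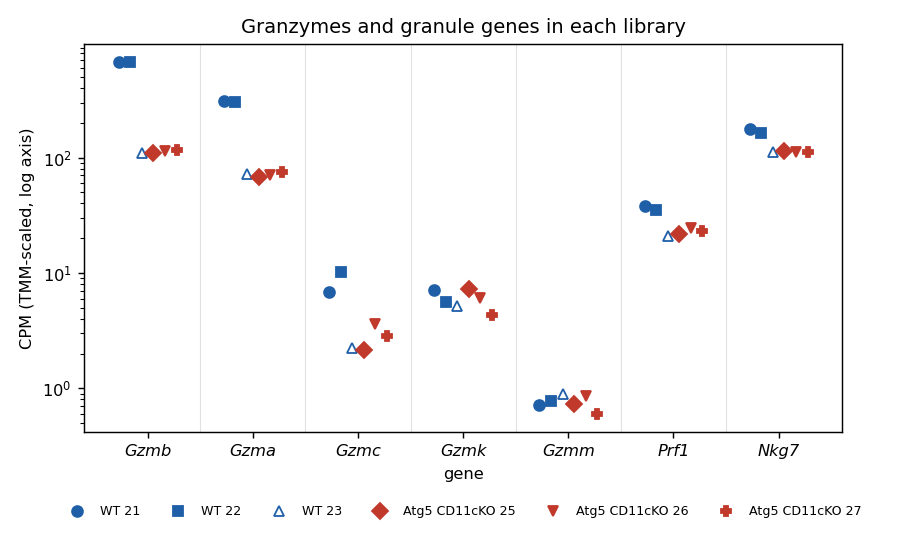
CPM on a log axis (y) is drawn for the 7 measured effector genes (x), with 1 point per library, blue for WT (open triangles for the library labelled WT 23) and red for Atg5 CD11cKO. WT 21 and WT 22 lie above the other 4 libraries for Gzmb, Gzma, Gzmc, Prf1 and Nkg7, and Gzmk and Gzmm show no such gap.

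Of the activating receptors found on NK cells, Klrk1 and Ncr1 were lower without the library labelled WT 23, to unequal degrees. Klrk1, which encodes NKG2D, the receptor for stress-induced ligands of the RAE-1 and H60 families, was at 312, 320 and 202 CPM in WT and at 210, 201 and 197 CPM in Atg5 CD11cKO. Its log2 fold change was -0.46 ± 0.17 as labelled (edgeR adjusted p = 0.341) and -0.64 ± 0.04 (edgeR adjusted p = 5.7e-07) without the library labelled WT 23. Ncr1, which encodes NKp46, the receptor found on NK cells and ILC1, was at 46.7, 43.4 and 35.9 CPM in WT and at 39.4, 37.0 and 36.2 CPM in Atg5 CD11cKO. The gap between WT 22 and the highest Atg5 CD11cKO library was small, and the log2 fold change without the library labelled WT 23 was -0.26 ± 0.09 (edgeR adjusted p = 0.049). This call ended whenever any of the 5 remaining libraries was left out, with an edgeR adjusted p between 0.061 and 0.219, and it ended with library totals as scaling and without a filter.

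The chains of the CD94-NKG2 receptors, which bind the MHC class Ib molecule Qa-1, came apart. Klrd1, which encodes CD94, the chain that all of them share, was at 91.3, 86.9 and 81.6 CPM in WT and at 73.0, 81.6 and 76.4 CPM in Atg5 CD11cKO. Klrc1, whose product NKG2A gives the inhibitory receptor, was at 72.0, 72.9 and 37.2 CPM in WT and at 43.3, 38.0 and 36.1 CPM in Atg5 CD11cKO. Klrc2, whose product NKG2C gives the activating one, was at 21.4, 22.0 and 6.99 CPM in WT and at 7.43, 6.72 and 9.30 CPM in Atg5 CD11cKO. The partner chains were thus well apart between WT 21 and WT 22 and the other libraries, while CD94 nearly overlapped. Without the library labelled WT 23 the log2 fold change was -0.88 ± 0.09 for Klrc1 (edgeR adjusted p = 1.7e-05), -1.47 ± 0.16 for Klrc2 (edgeR adjusted p = 3.7e-05) and -0.20 ± 0.07 for Klrd1 (edgeR adjusted p = 0.043). The call of Klrd1 ended in 4 of 5 fits that left out 1 more library (each but Atg5 CD11cKO 26), with an edgeR adjusted p between 0.034 and 0.191 over the 5, and with library totals and without a filter.

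Klrc1 and Klrc2 share much of their message. Of the 50-base windows of Klrc1, 36.6% also occur in Klrc2, and 61.4% occur nowhere else among annotated transcripts, so the split of reads between them is uncertain. Klrc3, which gives NKG2E, shares 31.1% of its windows with Klrc2 and was at 1.83, 1.03 and 0.191 CPM in WT and at 1.06, 0.336 and 0.754 CPM in Atg5 CD11cKO. Its groups overlapped with and without WT 23, and its log2 fold change was -0.51 ± 0.78 and -0.99 ± 0.56 (edgeR adjusted p = 0.749 and 0.215). The ratio of Klrc1 to Klrd1 was 0.789, 0.839 and 0.456 in WT and 0.593, 0.465 and 0.472 in Atg5 CD11cKO.

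In the NKR-P1 family Klrb1c alone passed the test without the library labelled WT 23. Klrb1c, which encodes the activating NKR-P1C used to stain NK cells in C57BL/6 mice, was at 130, 114 and 43.5 CPM in WT and at 43.3, 45.1 and 45.6 CPM in Atg5 CD11cKO. Its log2 fold change was -1.10 ± 0.36 as labelled (edgeR adjusted p = 0.338), which DESeq2 put at an adjusted p of 0.046, within a range of 0.046 to 0.432 over the alternatives. With WT 23 left out it was -1.44 ± 0.07 (edgeR adjusted p = 4.9e-08). Klrb1b, which encodes the inhibitory receptor for Clr-b, was at 36.8, 41.8 and 35.8 CPM in WT and at 36.8, 36.8 and 38.9 CPM in Atg5 CD11cKO, with overlapping groups and a log2 fold change of -0.06 ± 0.10. An annotated gene, Gm44511, overlaps both on the same strand and shares 25.5% of the windows of Klrb1b and 12.4% of those of Klrb1c, so part of their reads cannot be assigned.

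Klrb1a, an activating member of the family, was at 12.5, 12.7 and 11.5 CPM in WT and at 10.2, 8.64 and 8.64 CPM in Atg5 CD11cKO. Klrb1f, the receptor for Clr-g, was at 20.6, 20.1 and 16.9 CPM in WT and at 16.5, 16.5 and 14.4 CPM in Atg5 CD11cKO. Both were among the few members whose groups did not overlap with all 6 libraries, and neither passed the test (edgeR adjusted p = 0.340 and 0.356 as labelled, and 0.054 and 0.056 with WT 23 left out). Klrb1 was at 0.745, 1.005 and 0.0636 CPM in WT and at 0.224, 0.183 and 0.471 CPM in Atg5 CD11cKO, and the groups overlapped through WT 23 only. Its log2 fold change was -1.04 ± 0.88 as labelled and -1.56 ± 0.64 with WT 23 left out (edgeR adjusted p = 0.091), as large as that of Klrb1c but at few counts and not called. Klrb1c stood against Ncr1 at a ratio of 2.79, 2.62 and 1.21 in WT and of 1.10, 1.22 and 1.26 in Atg5 CD11cKO.

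Of the smaller families, Klre1 encodes a chain that pairs with KLRI1 or KLRI2. Klre1 was at 23.4, 23.8 and 20.03 CPM in WT and at 18.5, 20.6 and 21.0 CPM in Atg5 CD11cKO. Klri1, the inhibitory partner, was at 17.6, 13.8 and 15.5 CPM in WT and at 17.5, 17.7 and 17.4 CPM in Atg5 CD11cKO. The activating partner Klri2 was at 22.1, 26.3 and 23.0 CPM in WT and at 18.8, 20.5 and 19.98 CPM in Atg5 CD11cKO. Klri2 alone of the 3 did not overlap between the groups as labelled, and none passed the test (edgeR adjusted p = 0.510, 0.523 and 0.349 as labelled, 0.173, 0.417 and 0.109 without the library labelled WT 23). Klrg1, an inhibitory receptor for cadherins on mature NK and T cells, was at 2.24, 3.58 and 3.34 CPM in WT and at 3.71, 3.60 and 3.80 CPM in Atg5 CD11cKO, with a log2 fold change of 0.28 ± 0.26. Klrg2 was at 5.75, 3.58 and 2.80 CPM in WT and at 3.17, 3.51 and 1.63 CPM in Atg5 CD11cKO, and its groups overlapped through WT 23 only, with an edgeR adjusted p of 0.142 without it.

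**Figure D3:**
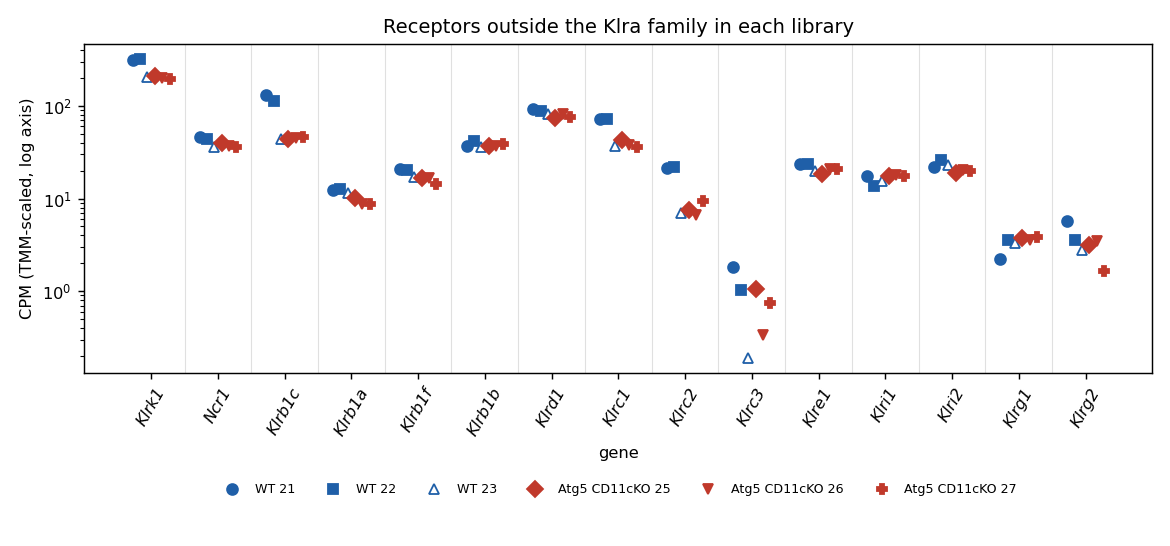
CPM on a log axis (y) is drawn for 15 receptor genes outside the Klra family (x), with 1 point per library, blue for WT (open triangles for the library labelled WT 23) and red for Atg5 CD11cKO. The gap between WT 21 and WT 22 and the other libraries is wide for Klrb1c, Klrc1, Klrc2 and Klrk1, narrow for Klrd1 and Ncr1, and missing for Klrb1b.

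The Ly49 (Klra) genes moved in both directions. Without the library labelled WT 23, 3 of the 12 tested (25.0%) were lower and 4 (33.3%) were higher, where 15.1% and 15.9% of all genes were, and the median log2 fold change was -0.03, beside -0.01 for all genes. Klra5, which encodes the inhibitory Ly49E, known from fetal NK cells and from ILC1, was at 14.1, 14.5 and 1.81 CPM in WT and at 1.28, 2.99 and 2.36 CPM in Atg5 CD11cKO. WT 21 and WT 22 were the only high libraries. Its log2 fold change was -2.20 ± 0.72 as labelled (edgeR adjusted p = 0.338) and -2.69 ± 0.28 (edgeR adjusted p = 2.4e-05) without the library labelled WT 23, 6.44-fold lower. With 99.3% of its windows found nowhere else, few of its reads can be taken for those of another Ly49 gene.

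The Ly49 genes with the highest counts went the other way. Klra2, which encodes the inhibitory Ly49B, was at 26.0, 26.6 and 46.9 CPM in WT and at 49.1, 44.7 and 51.8 CPM in Atg5 CD11cKO. Klra17, which encodes Ly49Q, was at 27.6, 25.6 and 36.1 CPM in WT and at 35.2, 35.6 and 37.1 CPM in Atg5 CD11cKO. In both, WT 21 and WT 22 were the only low libraries, and all windows of these genes are their own. The log2 fold change of Klra2 was 0.55 ± 0.23 as labelled (edgeR adjusted p = 0.346) and 0.89 ± 0.10 (edgeR adjusted p = 3.3e-05) without the library labelled WT 23. For Klra17 it was 0.27 ± 0.14 (edgeR adjusted p = 0.373) and 0.44 ± 0.10 (edgeR adjusted p = 0.0054).

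The classical NK cell Ly49 receptors were scarcer. Klra9, which encodes the inhibitory Ly49I, was at 12.5, 11.6 and 8.30 CPM in WT and at 6.76, 9.19 and 7.51 CPM in Atg5 CD11cKO. Klra7, which encodes the inhibitory Ly49G, was at 10.4, 9.72 and 7.82 CPM in WT and at 6.44, 7.08 and 5.81 CPM in Atg5 CD11cKO. Both passed without the library labelled WT 23, with a log2 fold change of -0.62 ± 0.18 (edgeR adjusted p = 0.023) and -0.64 ± 0.18 (edgeR adjusted p = 0.021). Both calls ended in 3 of 5 fits that left out WT 21, Atg5 CD11cKO 25 or Atg5 CD11cKO 27 as well, with an edgeR adjusted p up to 0.096 for Klra9 and up to 0.084 for Klra7.

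Klra3, which encodes the inhibitory Ly49C, was at 1.58, 1.48 and 3.69 CPM in WT and at 3.81, 4.27 and 5.50 CPM in Atg5 CD11cKO. Klra4, which encodes the activating Ly49D, was at 0.652, 0.296 and 1.43 CPM in WT and at 2.95, 2.11 and 1.19 CPM in Atg5 CD11cKO. Klra8, which encodes Ly49H, the activating receptor for a cytomegalovirus protein, was at 2.11, 0.709 and 2.70 CPM in WT and at 3.07, 2.69 and 3.11 CPM in Atg5 CD11cKO. Only Klra3 was apart between the groups as labelled. With WT 23 left out the log2 fold change was 1.57 ± 0.30 for Klra3 (edgeR adjusted p = 0.0022), 2.14 ± 0.56 for Klra4 (edgeR adjusted p = 0.013) and 1.07 ± 0.44 for Klra8 (edgeR adjusted p = 0.088). The call of Klra4 ended without WT 22 and without Atg5 CD11cKO 25, with an edgeR adjusted p up to 0.067. Of the windows of Klra3 13.5% also occur in Klra9, and 79.3% are its own. For Klra8 only 66.9% are its own and for Klra9 68.5%, so values of these genes carry an error from the split of reads that their spread does not show.

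Klra1, which encodes Ly49A, was at 3.48, 3.43 and 3.97 CPM in WT and at 3.65, 2.90 and 3.08 CPM in Atg5 CD11cKO. Klra6 was at 1.06, 1.24 and 1.21 CPM in WT and at 0.416, 1.40 and 0.566 CPM in Atg5 CD11cKO. None of these genes set the groups apart. The pseudogene Klra13-ps was at 1.93, 2.13 and 2.29 CPM in WT and at 1.95, 2.32 and 1.95 CPM in Atg5 CD11cKO. The pseudogene Klra14-ps was at 1.09, 0.473 and 0.636 CPM in WT and at 0, 0.641 and 0.503 CPM in Atg5 CD11cKO. The groups overlapped for each of these 4 with and without WT 23, and none passed the test. Klra10 reached no more than 0.540 CPM and was filtered out before the test.

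**Figure D4:**
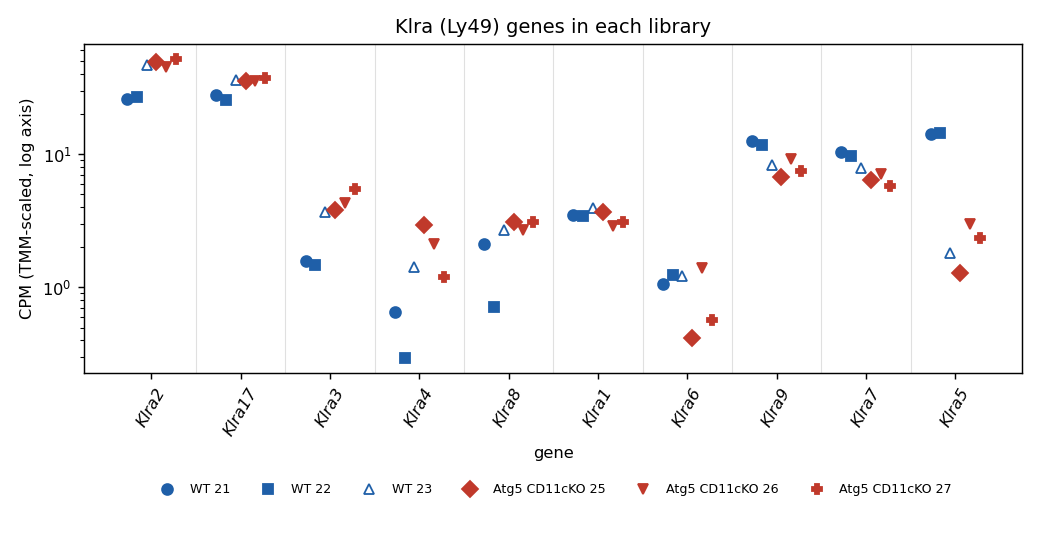
CPM on a log axis (y) is drawn for 10 Klra genes (x), with 1 point per library, blue for WT (open triangles for the library labelled WT 23) and red for Atg5 CD11cKO. WT 21 and WT 22 are the lowest libraries for Klra2, Klra17, Klra3, Klra4 and Klra8, of which Klra8 was not called, and the highest for Klra9, Klra7 and Klra5.

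Summed levels put WT 21 and WT 22 further from the other libraries for effectors than for receptors. The 7 effector genes summed to 1218, 1190 and 320 CPM in WT and to 324, 331 and 334 CPM in Atg5 CD11cKO. The 29 receptors summed to 920, 905 and 654 CPM in WT and to 658, 654 and 648 CPM in Atg5 CD11cKO. The ratio of effector to receptor counts was therefore 1.32, 1.31 and 0.490 in WT and 0.492, 0.506 and 0.515 in Atg5 CD11cKO. Gzmb made up 55.8% and 56.5% of the effector counts in WT 21 and WT 22 and between 33.8% and 34.7% in the other libraries. The Klra genes summed to 103, 98.2 and 117 CPM in WT and to 115, 116 and 120 CPM in Atg5 CD11cKO, and without Klra2, Klra5 and Klra17 the sum lay between 29.3 and 34.9 CPM in every library, with overlapping groups. Against CD94 (Klrd1), Gzmb stood at a ratio of 7.45, 7.73 and 1.33 in WT and of 1.497, 1.41 and 1.52 in Atg5 CD11cKO.

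**Figure D5:**
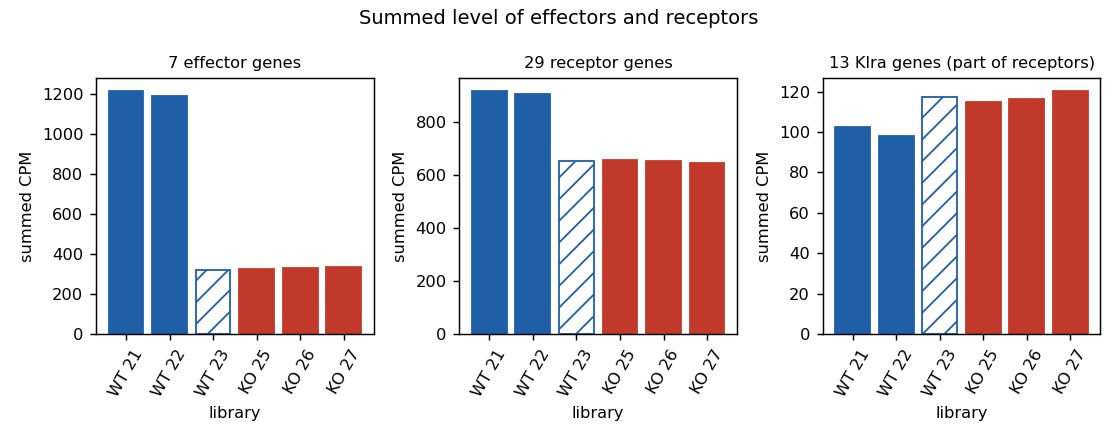
Bars give the summed CPM (y axes from 0) of the 7 effector genes, the 29 receptor genes and the 13 Klra genes among them in each library, blue for WT (hatched for the library labelled WT 23) and red for Atg5 CD11cKO (KO). Effectors reach 1218 and 1190 CPM in WT 21 and WT 22 and no more than 334 CPM elsewhere, and the Klra genes are lowest in WT 21 and WT 22.

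Other genes of NK cells and ILC1 did not move as a block. Of 25 such genes 11 (44.0%) were lower and 4 (16.0%) higher without the library labelled WT 23, where 15.1% and 15.9% of all genes were, with a median log2 fold change of -0.43, and over the 6 libraries none passed in edgeR or DESeq2, with 5 lower in edgeR at an unadjusted p under 0.05, where 9.17% of all genes were. Tbx21, which encodes T-bet, the factor that both cell types need, was at 37.4, 33.6 and 33.4 CPM in WT and at 33.9, 35.9 and 36.1 CPM in Atg5 CD11cKO. Eomes, the factor of conventional NK cells, was at 2.89, 2.66 and 4.32 CPM in WT and at 3.55, 5.25 and 3.64 CPM in Atg5 CD11cKO. Neither passed the test. The groups overlapped for Tbx21 with and without WT 23, and for Eomes through WT 23 only, without which the log2 fold change of Eomes was 0.59 ± 0.29 (edgeR adjusted p = 0.152). Il2rb, the chain through which NK cells receive IL2 and IL15, was at 370, 368 and 173 CPM in WT and at 184, 199 and 195 CPM in Atg5 CD11cKO (log2 fold change -0.93 ± 0.04 with an edgeR adjusted p of 2.3e-08 once WT 23 was left out). Cd7 (-0.96), the granule protease Ctsw (-0.92) and the chemokine Ccl5 (-0.44) passed the test in the same direction. The integrin Itga1, which marks liver ILC1, changed by -0.87 ± 0.14 (edgeR adjusted p = 7.1e-04) without WT 23. S1pr5, by which mature NK cells leave tissues, changed by 1.20 ± 0.21 (edgeR adjusted p = 0.0010). Of the same list Tnfsf10, against the direction of Itga1, changed by 0.49 ± 0.22, and Itga2 by -0.32 ± 0.66. Neither passed (edgeR adjusted p = 0.122 and 0.764). Also called higher were Cd244a (0.24), Slamf7 (0.39) and Sh2d1b1 (0.68). Itga1, S1pr5, Tnfsf10, Itga2, Cd244a, Slamf7 and Sh2d1b1 were named after their values had been seen.

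The other genes of the killing machinery were mixed. Of 19 tested genes of granule content, granule release and granzyme inhibition 5 (26.3%) were lower and 8 (42.1%) higher without the library labelled WT 23, beside the same 15.1% and 15.9% of all genes, with a median log2 fold change of 0.04. As labelled, edgeR and DESeq2 each called 0 of them. At an unadjusted p under 0.05 in edgeR 3 were lower and 2 higher, where 9.17% and 5.21% of all genes were. The lower ones were Rab27a (-0.51), Unc13d (-0.37) and Stxbp2 (-0.43), which act in the release of granules, and the inhibitors Serpinb6b (-0.73) and Serpinb9 (-0.54). Those higher were led by Lamp1 (0.90), Calr (0.62), Ctsc (0.58), the protease that activates granzymes, and Arl8b (0.64), genes that macrophages also use. Serpinb9, the inhibitor of granzyme B, was at 137, 159 and 106 CPM in WT and at 97.0, 103 and 104 CPM in Atg5 CD11cKO, without overlap between the groups as labelled. Its log2 fold change was -0.40 as labelled (edgeR adjusted p = 0.340) and -0.54 ± 0.07 (edgeR adjusted p = 1.1e-04) without WT 23. Rab27a, Unc13d, Stxbp2 and Serpinb9 were named after their values had been seen.

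Among 15 adaptors and signalling genes 8 (53.3%) were lower and 6 (40.0%) higher with WT 23 left out, where 15.1% and 15.9% of all genes were. As labelled edgeR and DESeq2 each called 0. At an unadjusted p under 0.05 in edgeR 2 were lower and 2 higher, where 9.17% and 5.21% of all genes were. The 4 with the lowest adjusted p were Fyn (-0.57), a kinase of T and NK cells, Fcer1g (0.78) and Tyrobp (0.41), the adaptors FcRγ and DAP12 that myeloid cells also use, and the phosphatase gene Ptpn6 (0.69). Of the 12 tested ligands of these receptors 5 (41.7%) were lower by edgeR with WT 23 left out, where 15.1% of all genes were. As labelled, edgeR called 0 of 11 tested ligands and DESeq2 called 1 lower. The 5 lower without WT 23 were the MHC class I genes H2-K1 (-0.46), H2-D1 (-0.17), H2-T23 (-0.32), which encodes Qa-1, and H2-M3 (-0.16), and Cdh1 (-1.37), the E-cadherin bound by KLRG1.

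Markers of other cells moved between the same libraries, and their counts without WT 23 stand beside 15.1% of all genes lower and 15.9% higher. As labelled, edgeR called 0 genes of each list. DESeq2 then called 3 T cell, 4 plasmacytoid DC, 1 macrophage or DC, 2 hepatocyte and 18 pancreatic acinar genes lower. It also called 1 mast cell or basophil gene lower, and of all genes it called 372 lower and 44 higher. T cell genes, the other source of granzymes, were lower for 10 of 18 without the library labelled WT 23, and summed to 533, 537 and 265 CPM in WT and to 274, 276 and 263 CPM in Atg5 CD11cKO. Cd3e was at 45.2, 44.4 and 21.6 CPM in WT and at 20.2, 21.4 and 22.5 CPM in Atg5 CD11cKO. Plasmacytoid DC genes were lower for 12 of 13 and summed to 2134, 2113 and 895 CPM in WT and to 881 to 888 CPM in Atg5 CD11cKO, so that they were highest in WT 21 and WT 22, where Klra17 was lowest. Genes of CD11c+ macrophages and DCs were lower for 5 and higher for 11 of 18, and Itgax itself was at 431, 443 and 471 CPM in WT and at 491, 463 and 482 CPM in Atg5 CD11cKO. Hepatocyte genes were lower for 14 of 14 and pancreatic acinar genes for 18 of 18. These summed to 1794, 1766 and 331 CPM and to 30252, 29752 and 550 CPM in WT, and to no more than 344 and 587 CPM in Atg5 CD11cKO. The part of these differences in the levels of the granzymes and receptors was not tested. B cell genes, of which Jchain was higher and the other 6 were not called, summed to between 77.9 and 86.3 CPM. Of the mast cell and basophil genes, which include proteases near the granzymes of chromosome 14, 2 were lower of 4 tested (Kit and Hdc), and Cpa3, Mcpt4, Tpsb2 and Tpsab1 stayed below 0.3 CPM in every library. Of the proteases of the granzyme cluster only Cma1 could be tested, at 0.448 to 0.641 CPM and not called.

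Most receptors lie together in the NK gene complex on chromosome 6, from Klrb1a at 128609227 to Klra2 at 131247362 of mm10. Of the 25 members tested within this stretch 8 (32.0%) were lower and 4 (16.0%) higher without the library labelled WT 23, where 15.1% and 15.9% of all genes were. Of 23 other tested genes in the same stretch 2 (8.70%) were lower, Gm5884 and the DC gene Clec9a, and 5 (21.7%) were higher, among them Cd69 and Clec7a, which encodes Dectin-1. As labelled, edgeR called 0 of the members and 0 of the other genes in the stretch. Ncr1 and Nkg7 lie on chromosome 7, Prf1 and Gzmm on chromosome 10, Gzma and Gzmk on chromosome 13, and Gzmb and Gzmc on chromosome 14.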

How the data were processed

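RNA-seq was analysed for 6 libraries of hepatic CD11c+ cells. The deposited gene table gives estimated counts. For these the submitters' processing notes name bcl2fastq (2.17.1.14), STAR (2.5.3a), Partek and the build mm10, and 16.2% of the members' values are whole within 1e-06. Neither the annotation nor a strand setting was found in these sources. A second table, a normalized signal as deposited, holds the same counts times 1 factor per library (0.0269 to 0.0288) for 20388 genes, and was used only in alternatives. Counts were rounded, filtered with filterByExpr, scaled by TMM (factors 0.985 to 1.01) and compared with edgeR 4.0.16 (quasi-likelihood F test, Benjamini-Hochberg at 0.05) in R 4.3.3, with DESeq2 1.42.0 and limma 3.58.1 as alternatives. A log2 fold change is Atg5 CD11cKO against WT, and its SE is that value over the square root of F. The procedure was tested on simulated counts. Columns of no other sample were present.
The members and all gene lists were chosen with earlier results of these data known. The rule named every measured member, those with 1 CPM or more in a library with each value, and up to 4 genes of each list by adjusted p. Genes outside it are named as such or as defining genes. Sequences were matched by symbol to RefSeq promoters (GRCm38.p6), and 50-base windows of GENCODE vM21 transcripts were compared for uniqueness. Every pair of libraries differed by more than counting noise, so none was counted as a repeat deposit. Repeated preparations of 1 RNA would differ in this way too and were not looked for. Python 3.11.15 with matplotlib 3.10.9 drew the figures.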

Additional observations from a re-analysis of the deposited data

How the results depend on the processing

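The counts of members called were recomputed with RLE factors, library totals, no filter, 1 CPM in 3 libraries, DESeq2, limma-voom, limma on the authors' normalized values (pseudocount 1 or 0.1), and each library left out in turn. Over the 6 libraries as labelled, DESeq2 called 1 member lower (Klrb1c) where edgeR called 0, and the other alternatives called 0. Leaving out 1 library called between 0 and 14 members lower and between 0 and 4 higher, and the 14 and 4 came without the library labelled WT 23. Gzmk, at a log2 fold change of -0.01, turned to 0.0012 with library totals and without a filter. Over these 8 alternatives 274 of 277 values of single members kept their direction and call. Without the library labelled WT 23, the alternatives called 12 to 16 members lower and 4 to 5 higher, and leaving out 1 more library called 10 to 13 lower and 3 to 5 higher. There 265 of 277 values kept their direction and call, and none turned. Of the others 8 gained a call (Klra8, Klrb1, Klrb1a and Klrb1f, each in some alternatives), and 4 lost one (Klrd1 and Ncr1, with library totals and without a filter). Leaving out 1 library at a time turned 5 members, none of them called in either comparison: the log2 fold change ranged, over the 6 libraries and then without WT 23, from -0.19 to 0.18 and from -0.27 to 0.0918 for Gzmk, from -0.24 to 0.016 and from -0.15 to 0.11 for Gzmm, from -0.11 to 0.0385 and from -0.0489 to 0.12 for Klra13-ps, from -0.0628 to 0.0473 and from -0.15 to 0.0365 for Klrb1b, and from -0.99 to 0.21 over the 6 for Klrc3, at -0.51 as labelled. Of the 18 members called, 13 passed in every alternative and every fit without 1 more library. The other 5 were Klra4, Klra7, Klra9, Klrd1 and Ncr1. No paired analysis was possible because the replicate numbers of the groups (21 to 23 and 25 to 27) share no number. Members near 1 CPM rest on few reads. With 3 libraries a group and 1 that stood apart, a p that missed the threshold over the 6 libraries does not show equal levels.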
